A study of Rattus norvegicus with 6 samples.

Results

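Blood cell miRNAs were followed in small RNA libraries of exosomes, the small vesicles that cells release, from rat mesenchymal stem cells (MSCs). The 6 members were chosen by exact name from the 763 mature miRNAs listed, and comprised 3 red-cell miRNAs (miR-486, miR-451-5p and miR-144-3p) and 3 white-cell miRNAs (miR-142-5p, miR-142-3p and miR-223-3p). The exosomes came from the conditioned medium of wild-type RBMSC cells pretreated with 200 µM nicorandil for 24 h (3 libraries) or from the same cells without pretreatment (3 libraries). Nicorandil, a drug given for angina, acts both as a nitric oxide donor and as an opener of potassium channels gated by ATP. The study's question was how the pretreatment alters the miRNA cargo. Exosomes were collected with an isolation reagent. Whether libraries of a group were grown as separate cultures is not stated, so p-values cover the spread between these libraries, which may be technical.

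A miRNA is a short RNA that guides an Argonaute protein to messenger RNAs, mainly through its seed, bases 2 to 8 from the 5′ end. miR-451 and miR-144 are made from neighbouring hairpins that are switched on by the factor GATA1 as red cells mature. miR-451 is unusual in that Argonaute 2, and not Dicer, cuts its precursor, and miR-486 lies within the gene of ankyrin 1, a protein of the red-cell membrane. Both are among the most abundant miRNAs of mature red cells. miR-142 is made throughout the blood lineage and is high in white cells. miR-223 is a miRNA of neutrophils, monocytes and platelets. These associations are background knowledge: a miRNA name in an exosome library does not show which cell made the molecule.

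The mature sequences of the 5 members that RefSeq holds (build GRCr8, all on the plus strand) are given 5′ to 3′ with the seed in capitals, because they show whether the members could share targets or be miscounted for each other. miR-486 is named only.
miR-451-5p, chr10:63459585-63459606: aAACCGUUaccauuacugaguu
miR-144-3p, chr10:63459446-63459465: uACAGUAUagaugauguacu
miR-142-5p, chr10:73055119-73055139: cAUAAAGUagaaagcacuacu
miR-142-3p, chr10:73055155-73055177: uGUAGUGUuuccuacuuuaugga
miR-223-3p, chrX:65151450-65151470: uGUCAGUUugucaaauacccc
All 5 seeds differ, and no other of the 724 mature rat sequences in the RefSeq table shares any of them. The sequences were poor in G and C. Their GC content was 36.4% for miR-451-5p, 30.0% for miR-144-3p, 33.3% for miR-142-5p, 34.8% for miR-142-3p and 42.9% for miR-223-3p, against a median of 47.8% over the 226 miRNAs with both a read and a RefSeq sequence.

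The hairpins of 4 members are shown next, and they matter here because molecules of a shared transcript were counted very unequally. Capitals mark the members within them.
Mir451a: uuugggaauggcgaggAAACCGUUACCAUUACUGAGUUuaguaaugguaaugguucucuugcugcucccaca
Mir144: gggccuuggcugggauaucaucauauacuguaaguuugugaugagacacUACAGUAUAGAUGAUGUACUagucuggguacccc
Mir142: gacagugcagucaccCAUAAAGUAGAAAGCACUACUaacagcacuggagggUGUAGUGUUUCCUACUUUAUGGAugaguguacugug
The Mir144 and Mir451a hairpins are 83 and 72 bases long and lie 89 bases apart on the same strand of chromosome 10. The Mir142 hairpin, of 87 bases, carries miR-142-5p in its 5′ arm and miR-142-3p in its 3′ arm.

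The libraries were shallow, and depth differed between the groups. The nicorandil libraries held 16628, 16324 and 8426 miRNA reads and the untreated libraries 2224, 2212 and 2338, a 6.11-fold difference between the group totals of 41378 and 6774. Depth and pretreatment cannot be told apart in this design, so member levels are given first as shares of all miRNA reads in a library. Where a member had 0 reads, a level of up to 3 reads cannot be told from none, which is 0.018% to 0.0356% of a nicorandil library and 0.128% to 0.136% of an untreated one. Mesenchymal miRNAs (a list of 11, all with reads) took 26.2% to 31.3% of the nicorandil and 27.3% to 28.0% of the untreated libraries. Most of this was miR-143-3p, a mesenchymal and smooth muscle miRNA and the most abundant of the table, with a mean share of 23.3%. Of the others, miR-145-5p had 0 untreated reads, and miR-31a-5p had 1 nicorandil read and 0 untreated reads.

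All 6 blood cell members had at least 1 read, and together they were a small part of either kind of exosome. They took 0.337%, 0.263% and 0.415% of the reads of the nicorandil libraries (134 reads in all) and 0.854%, 0.678% and 0.727% of the untreated libraries (51 reads). By mean share over the 6 libraries, out of 250 miRNAs with a read, miR-486 ranked 46 and miR-451-5p ranked 58. miR-142-5p ranked 79, miR-223-3p 131, miR-142-3p 161 and miR-144-3p 217. miR-486 stood between miR-149-5p and miR-92a-3p, with mean shares of 0.285% and 0.28% beside its own 0.283%.

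**Figure D1:**
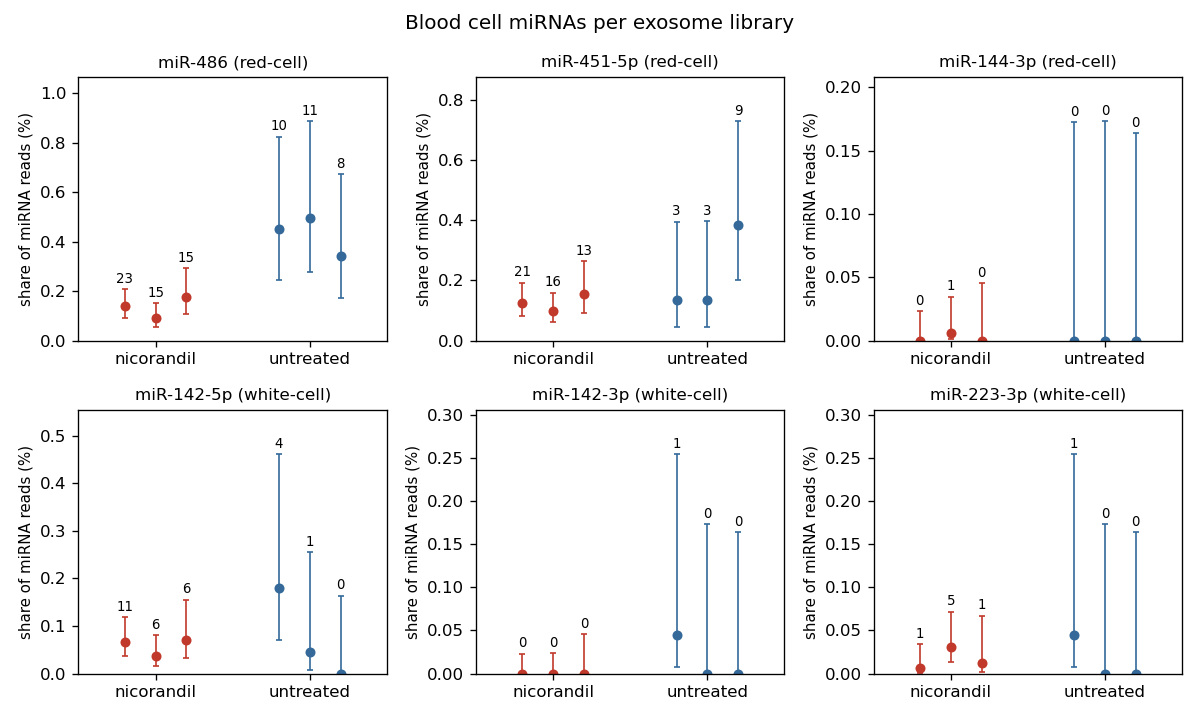
Share of all miRNA reads (percent, vertical axis) of each member in each exosome library, with the 3 nicorandil libraries left and the 3 untreated libraries right in replicate order. Points are libraries, bars are 95% Wilson intervals, which cover counting error only, and the number above each bar is the member's reads. The nicorandil libraries lie below the untreated ones for miR-486, and the groups overlap for the other 5 members.

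miR-486 was the most abundant member and the only member whose level fell in nicorandil exosomes past the test's threshold, which the other 2 tested members did not reach. It had 23, 15 and 15 reads in the nicorandil libraries and 10, 11 and 8 in the untreated ones. As shares these were 0.138%, 0.0919% and 0.178% in nicorandil libraries and 0.45%, 0.497% and 0.342% in untreated libraries. Every nicorandil share lay below every untreated share. The 95% Wilson intervals of the nearest pair of libraries ran from 0.108% to 0.294% (nicorandil replicate 3) and from 0.173% to 0.674% (untreated replicate 3), so that pair overlapped in counting error. The mean share was 0.136% ± 0.0431 in nicorandil and 0.43% ± 0.0795 in untreated exosomes (SD, n = 3), and an exact permutation test (two-sided) gave p = 0.1, the smallest possible with 3 libraries a group, or 0.4 adjusted over the 4 members with a read in at least 3 libraries. Over the pooled reads the share in nicorandil exosomes was 0.299 times that in untreated exosomes (95% conditional exact interval 0.187 to 0.488, counting error only). With exosomes pooled in a library, fewer vesicles that carry a miRNA and fewer copies in each vesicle cannot be told apart.

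The authors deposited normalized reads, scaled between libraries, and these were tested for every miRNA whose mean over the 6 libraries was 1 or more. Their sums still differed: 6230, 6474 and 6505 in the nicorandil libraries and 4319, 4777 and 4856 in the untreated ones. miR-486 stood at 8.70, 5.02 and 11.9 normalized reads in nicorandil libraries and at 19.5, 22.9 and 17.5 in untreated libraries. The means were 8.54 ± 3.45 and 20.0 ± 2.74 normalized reads (SD, n = 3 each) in nicorandil and untreated exosomes. The log2 fold change on the log2(value + 1) scale was -1.20 (SE 0.36, limma adjusted p = 0.0238), lower in 3 of 3 nicorandil libraries. Of all 121 miRNAs tested, 26 passed (21.5%), of which 9 (7.44%) were lower and 17 (14.0%) higher in nicorandil exosomes. Normalized reads of the groups that did not overlap, with nicorandil lower, were found for 13 of the 121 (10.7%). Shares that did not overlap and were lower in nicorandil exosomes were found for 26 of the 121 (21.5%), so this separation of miR-486 was shared with many miRNAs that are no blood cell markers.

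The call of miR-486 was sensitive to single libraries. It was lost without nicorandil replicate 1 (limma adjusted p = 0.0753), nicorandil replicate 2 (0.105), untreated replicate 2 (0.0863) or untreated replicate 3 (0.0512), with log2 fold changes of -1.24, -0.90, -1.10 and -1.28, and kept without either of the other 2. Untreated replicates 1 and 2 differed by less than sampling noise (chi-square p = 0.735 over 54 miRNAs). The chi-square p was 0.154 over 55 miRNAs for untreated replicates 1 and 3 and 0.0145 over 56 for replicates 2 and 3. Each pair of nicorandil libraries differed beyond sampling noise. Their chi-square p was 3.3e-13 for replicates 1 and 2, 2.3e-55 for 1 and 3 and 1.8e-57 for 2 and 3. Such a spread is harder to detect at the lower depth of the untreated libraries. Averaging untreated replicates 1 and 2 and counting them as 1 sample gave a log2 fold change of -1.16 and a limma adjusted p of 0.062, past the threshold no longer.

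miR-451-5p, the other abundant red-cell miRNA, did not pass the test. It had 21, 16 and 13 reads in nicorandil libraries and 3, 3 and 9 in untreated libraries. The shares were 0.126%, 0.098% and 0.154% in nicorandil libraries, against 0.135%, 0.136% and 0.385% in untreated libraries. The groups overlapped, and untreated replicate 3 alone was high. The mean share was 0.126% ± 0.0281 in nicorandil and 0.218% ± 0.144 in untreated exosomes (SD, n = 3; two-sided exact permutation p = 0.4, adjusted 0.8). Its log2 fold change was -0.27 (SE 0.44, 95% interval -1.20 to 0.66, limma adjusted p = 0.835), an interval that ran from a fall about as large as that of miR-486 to a rise. Without untreated replicate 3 the log2 fold change was 0.094 (limma adjusted p = 0.927).

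miR-144-3p, the partner of miR-451 in the GATA1-driven cluster, was nearly absent from the counts. It had 1 read in nicorandil replicate 2 and 0 in the other 5 libraries, whereas miR-451-5p had 65 reads in all. No fold is given, since 0 untreated reads allow up to 0.128% to 0.136% of a library. The other arms of both hairpins, miR-144-5p and miR-451-3p, had 0 reads in all 6 libraries. The hairpin of miR-451 is known to yield its 5′ arm. A low level of the other arms was not detectable at this depth.

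miR-142-5p was the most abundant white-cell member. It had 11, 6 and 6 reads in nicorandil libraries and 4, 1 and 0 in untreated libraries. The shares were 0.0662%, 0.0368% and 0.0712% in nicorandil libraries and 0.18%, 0.0452% and 0% in untreated libraries, where 0 reads allow up to 0.128%. The untreated libraries ran both above and below the nicorandil ones. The mean share was 0.058% ± 0.0186 in nicorandil and 0.075% ± 0.0936 in untreated exosomes (SD, n = 3; two-sided exact permutation p = 0.9, adjusted 1). In normalized reads the log2 fold change was 0.36 (SE 0.68, 95% interval -1.07 to 1.80, limma adjusted p = 0.86), so the direction of the fitted value and that of the mean share differed, and no direction is given. The authors' scaling lists the untreated library without a read at 0.501 normalized reads.

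The other arm of the same hairpin, miR-142-3p, had 1 read in untreated replicate 1 and 0 in the other 5 libraries, against 28 reads of miR-142-5p. In nicorandil libraries, which hold most of the reads, the 5′ arm had 23 reads and the 3′ arm 0. miR-223-3p had 1, 5 and 1 reads in nicorandil libraries and 1, 0 and 0 in untreated libraries. Its pooled share in nicorandil exosomes was 1.15 times that in untreated exosomes, with a 95% conditional exact interval of 0.147 to 51.6, and the share gave p = 1 in a two-sided exact permutation test. Its other arm, miR-223-5p, had 1, 2 and 0 reads in nicorandil libraries and 0 in all 3 untreated libraries. miR-223-3p, miR-142-3p and miR-144-3p fell under the minimum mean value and were not tested in limma, so 3 of the 6 members were.

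**Figure D2:**
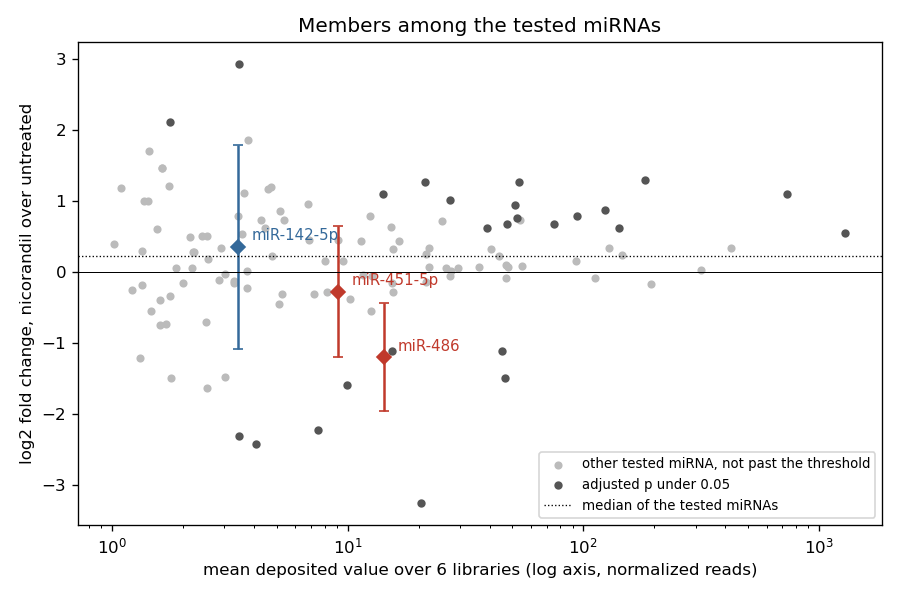
Log2 fold change of nicorandil over untreated exosomes (vertical axis) against the mean deposited value over 6 libraries (log axis, normalized reads) for the 121 miRNAs tested. Diamonds with 95% intervals are the 3 tested members (red-cell in red, white-cell in blue), dark points passed at an adjusted p under 0.05, and the dotted line is the median of 0.23. The interval of miR-486 lies below 0, and those of miR-451-5p and miR-142-5p span it.

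Red-cell reads outnumbered white-cell reads in all 6 libraries. There were 44, 32 and 28 red-cell against 12, 11 and 7 white-cell reads in the nicorandil libraries, and 13, 14 and 17 against 6, 1 and 0 in the untreated libraries. Red-cell members therefore made up 78.6%, 74.4% and 80.0% of the member reads in nicorandil libraries and 68.4%, 93.3% and 100% in untreated libraries. The nicorandil libraries were close together and lay within the range of the untreated ones. Over the pooled reads the red-cell part was 77.6% in nicorandil exosomes (95% exact binomial interval 69.6% to 84.4%) and 86.3% in untreated exosomes (73.7% to 94.3%), and these intervals overlap.

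As shares of all miRNA reads, the red-cell sum separated the groups and the white-cell sum did not. Of the red-cell members, miR-486 separated the groups by itself, miR-451-5p overlapped and miR-144-3p had 1 read. Among single miRNAs, 26 of the 121 tested (21.5%) had shares that separated in this direction. The red-cell sum was 0.265%, 0.196% and 0.332% in nicorandil libraries and 0.585%, 0.633% and 0.727% in untreated libraries. The white-cell sum was 0.0722%, 0.0674% and 0.0831% in nicorandil libraries and 0.27%, 0.0452% and 0% in untreated libraries. No test was made of these sums, since the members were chosen with results known. The pooled nicorandil share was 0.387 times the untreated share for red-cell members (95% conditional exact interval 0.27 to 0.564) and 0.702 times for white-cell members (0.302 to 1.89). Of the 7 untreated white-cell reads, 6 lay in untreated replicate 1. Without that library, a check added after the data were seen, the white-cell ratio was 3.30 (0.548 to 135, on 1 untreated read), and without untreated replicate 3 it was 0.459 (0.198 to 1.24), whereas the red-cell ratio ran from 0.355 to 0.442 over the 6 libraries left out in turn. The intervals over all libraries overlap, and with 7 untreated white-cell reads a difference between the classes was not detectable at this depth.

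**Figure D3:**
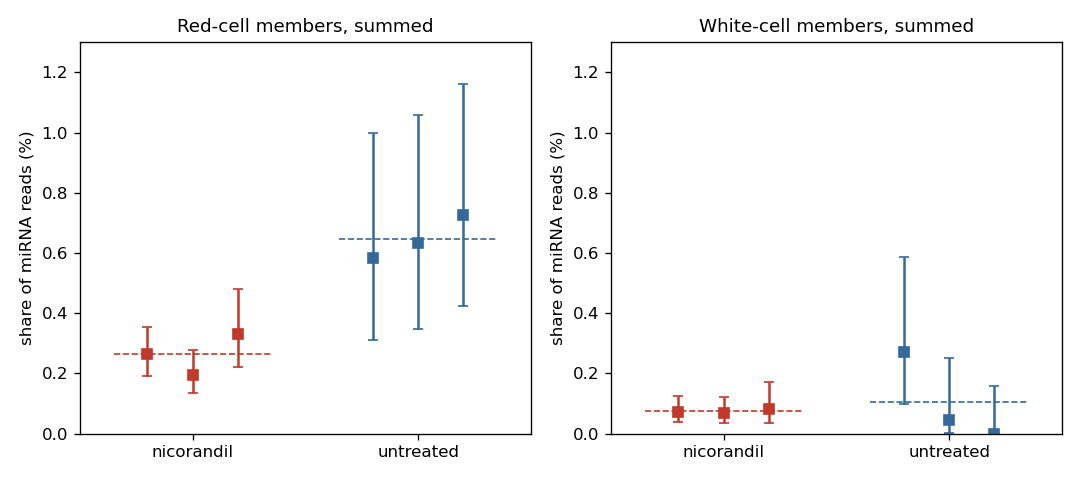
Summed share of all miRNA reads (percent, vertical axis) of the 3 red-cell members (left panel) and the 3 white-cell members (right panel) in each nicorandil and untreated library. Squares are libraries with 95% exact binomial intervals, and dashed lines are group means. Red-cell sums run from 0.196% to 0.332% in nicorandil and from 0.585% to 0.727% in untreated libraries, and white-cell sums of the groups overlap.

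Members were also set against each other within each library. miR-486 exceeded miR-451-5p by 0.13, -0.16 and 0.20 on the log2(value + 1) scale in nicorandil libraries and by 1.39, 1.48 and 0.083 in untreated libraries. The pair was near equal in the 3 nicorandil libraries and in untreated replicate 3, and miR-486 was higher in the other 2 untreated libraries. The change between the groups was -0.93 (two-sided exact permutation p = 0.3, adjusted 0.45 over 3 pairs). This was the only pair with a read in every library.

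Pairs that cross the classes were added after the data were seen, with a read required in 5 of 6 libraries. miR-486 exceeded miR-142-5p by 0.86, 1.10 and 1.17 in nicorandil libraries and by 1.44, 2.73 and 3.63 in untreated libraries. The groups did not overlap on this scale, and the change of -1.56 had p = 0.1 in a two-sided exact permutation test, the smallest possible, or 0.3 adjusted. The untreated values of 2.73 and 3.63 rest on 1 and 0 reads of miR-142-5p, so the size of this change is uncertain. On the log2(reads + 1) scale the differences were 1.00, 1.19 and 1.19 in nicorandil libraries and 1.14, 2.58 and 3.17 in untreated libraries, which overlapped, and the change was -1.17 (two-sided exact permutation p = 0.3). miR-451-5p exceeded miR-142-5p by 0.72, 1.26 and 0.97 in nicorandil libraries and by 0.052, 1.25 and 3.54 in untreated libraries, a change of -0.63 (two-sided exact permutation p = 0.8). With 3 libraries a group these tests cannot give a p under 0.1, so they settle neither that the classes moved alike nor that they differed.

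Other miRNAs that are abundant in blood are also made by many other cells. Over all 121 tested miRNAs 7.44% were lower and 14.0% higher, the shares against which the next counts are to be read. In a list of further red-cell miRNAs 7 of the 19 listed were tested, 1 rose, 0 fell and 6 did not pass. The riser was miR-93-5p, of the miR-106b-25 cluster, with 24 nicorandil and 0 untreated reads (limma adjusted p = 0.0289, or 0.0506 with median-of-ratios scaling). It reached the minimum mean only through the nicorandil libraries. In an untreated library 0 reads allow up to 0.128% to 0.136%, more than its share of the pooled nicorandil reads, so its untreated level was not resolved. miR-191a-5p stood at 160 ± 34.4 normalized reads in nicorandil and 133 ± 4.35 in untreated exosomes (SD, n = 3), and miR-92a-3p at 17.3 ± 4.65 and 13.8 ± 5.05, with log2 fold changes of 0.25 and 0.33 that did not pass. As shares of the pooled reads both were lower in nicorandil exosomes, so their direction depended on the scale. miR-191a-5p had 994 of 41378 nicorandil and 194 of 6774 untreated reads, and miR-92a-3p had 116 and 20. miR-16-5p, an abundant miRNA of red cells, had 5 nicorandil reads and 0 untreated reads. The list's median log2 fold change was 0.50, beside 0.23 over all tested miRNAs. Its summed share of reads was 3.18% ± 0.45 in nicorandil and 3.49% ± 0.221 in untreated libraries (SD, n = 3), and the groups overlapped.

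In a list of further white-cell miRNAs 10 of 19 were tested, 4 rose, 0 fell and 6 did not pass. The list's median on the log2 scale was 0.54. By summed share of reads this list was not higher in nicorandil libraries, at 10.4% ± 0.201 against 11.5% ± 1.36 in untreated ones (SD, n = 3). The groups overlapped. The risers were miR-21-5p, miR-146b-5p, miR-23a-3p and miR-27a-3p, all also made outside the blood, at 0.63, 1.28, 1.11 and 0.63 (limma adjusted p = 0.00937, 0.0343, 0.0298 and 0.0467). The calls of these 4 depended on the scale: none was called with library totals (0.17 to 1.03, limma adjusted p = 0.299 to 0.648), which placed the median of all tested miRNAs at -0.11, or with median-of-ratios scaling (0.40 to 1.21, limma adjusted p = 0.155 to 0.314). miR-146b-5p, at 1.21, and miR-23a-3p, at 0.97, had folds under the last scaling close to those reported. miR-146a-5p, a brake on innate immune signalling, stood at 13.2 ± 3.89 normalized reads in nicorandil and 9.56 ± 3.34 in untreated exosomes (SD, n = 3) and did not pass. miR-150-5p, a marker of mature lymphocytes, had 0 reads in all 6 libraries, and miR-155-5p, induced in activated white cells, had 7 nicorandil reads and 1 untreated read.

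Liver and gut, endothelial and epithelial markers, each list summed, were lower in the same nicorandil libraries as miR-486. Mesenchymal sums overlapped between the groups, and of 10 such miRNAs tested 4 rose and 0 fell on the deposited scale. Of these risers, miR-21-5p was also counted in the list of further white-cell miRNAs, and miR-145-5p had 46 nicorandil and 0 untreated reads. Beside these counts, 7.44% of all 121 tested miRNAs were lower and 14.0% higher. Liver and gut markers (3 listed, all with reads) took 0.463% to 0.617% of nicorandil and 1.44% to 2.61% of untreated libraries, and all 3 fell, also with library totals and median-of-ratios scaling. Endothelial markers (2 listed, with miR-126a-5p at 0 reads) took 0.0301% to 0.0356% and 0.181% to 0.36%, and epithelial markers (5 listed, all with reads) 0.0119% to 0.0301% and 0.181% to 0.385%, in nicorandil and untreated libraries. Only 1 endothelial miRNA was tested singly, and it fell, and of 2 epithelial miRNAs tested 1 fell. Both epithelial miRNAs and miR-194-5p, of liver and gut, reached the minimum mean only through the untreated libraries. miR-200b-3p, miR-200a-3p and miR-194-5p stood at 0.60, 0.24 and 0.68 normalized reads in nicorandil and 7.55, 3.31 and 6.22 in untreated exosomes. For these miRNAs the filter itself favoured a fall. The part of these markers in the result for miR-486 was not tested.

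The miRNAs whose levels ran most like a member's were taken from those with a mean of at least 10 normalized reads, by Pearson's r of log2(value + 1) over 6 libraries that share depth and group. For miR-486 they were let-7f-5p (r = 0.86), miR-122-5p, the liver miRNA (0.83), and miR-224-5p (0.81), out of 54. For miR-451-5p they were miR-760-3p (0.75), miR-26a-5p (0.72) and let-7i-5p (0.71), and for miR-142-5p miR-100-5p (0.54), miR-199a-3p (0.53) and let-7d-3p (0.49), out of 55 each. These values describe 6 libraries only.

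**Figure D4:**
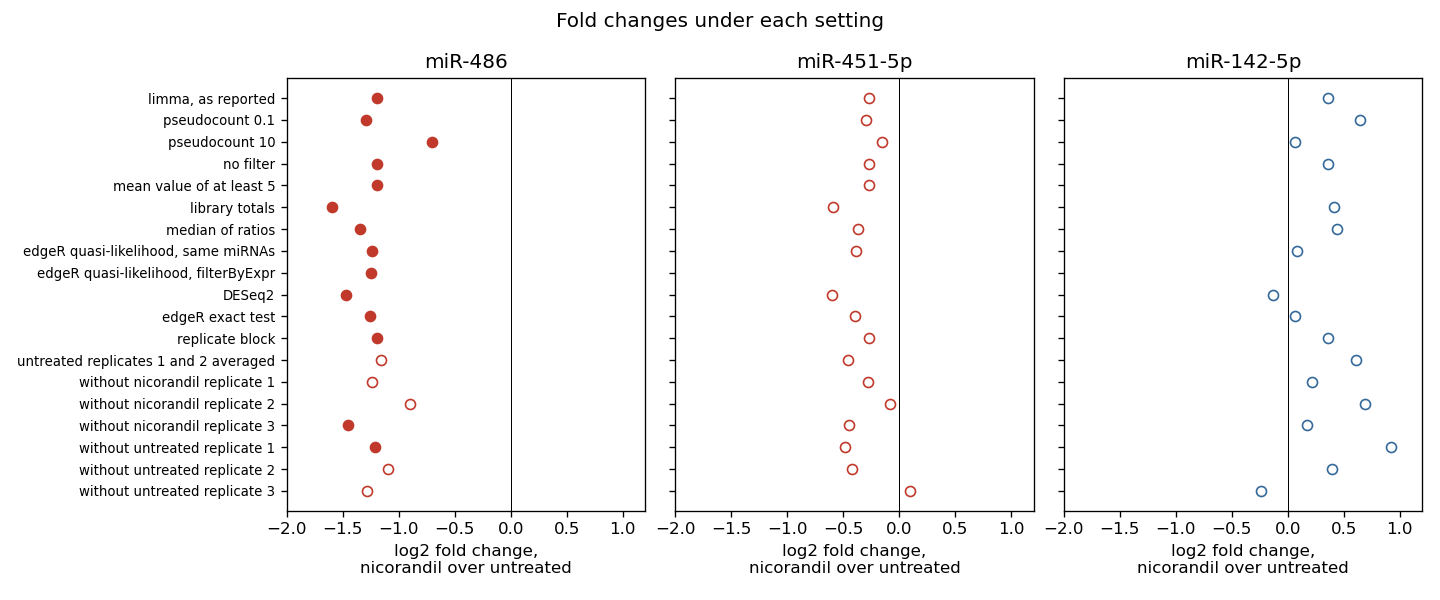
Log2 fold change of nicorandil over untreated exosomes (horizontal axis) for miR-486, miR-451-5p and miR-142-5p under limma as reported and under each alternative setting (rows). Filled points have an adjusted p under 0.05 and open points do not, and a missing point means that the miRNA did not pass that setting's filter. All 19 values of miR-486 are negative, 14 of them filled, and no point of the other members is filled.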

How the data were processed

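Small RNA was sequenced, single-end, in 3 libraries per group. FastQC, Bowtie and edgeR were used, per the submitters' processing notes, with versions not given in the sources used here, as are build and annotation. The authors deposited a normalized read-count signal per miRNA and library, beside 1 log2 fold change and 1 p-value, not adjusted, for each miRNA, per the file headers. The signal has the form of edgeR pseudo-counts, in which reads are mapped by quantile to a common library size with a dispersion of 0.0272. That size is a scaled one, and the values sum to different totals per library. Solving it backwards left whole reads in 100% of cases among 250 miRNAs with reads (relative tolerance 1e-05), while the rest of the 763 stand at a placeholder that tests nothing, and the deposited values were recomputed from them to within 5.3e-07.

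The deposited values were tested with limma 3.58.1 (R 4.3.3, intensity trend) on log2(value + 1), which understates changes of low miRNAs, for 121 miRNAs with a mean of at least 1. Benjamini-Hochberg adjustment ran over all of them, with a threshold of 0.05. edgeR 4.0.16 and DESeq2 1.42.0 were run on the recovered reads. limma, edgeR and DESeq2 were each run on simulated counts with known changes and a single dispersion for all miRNAs. Whether that dispersion matches these libraries was not tested. Shares used recovered reads, with exact permutation tests. Intervals cover counting error only, since the reads carry no molecular identifiers and PCR copies count again. The members and lists were chosen with earlier results of these data known. The miRNAs named were the members, other arms of their hairpins, abundant or changed members of the lists, abundance neighbours and the 3 most alike.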

Additional observations from a re-analysis of the deposited data

How the results depend on the processing

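miR-486 stayed lower in nicorandil exosomes in all 18 alternatives (log2 fold change -1.60 to -0.71), and 13 kept its call. Averaging untreated replicates 1 and 2 ended it at -1.16 (limma adjusted p = 0.062). Leaving out 1 library gave -1.45 to -0.90, with the call kept in 2 of 6 fits. The quasi-likelihood test of edgeR gave adjusted p-values of 0.041 on the same miRNAs and 0.0288 with filterByExpr, and DESeq2 gave 0.043. miR-451-5p was not called in any of 17 alternatives, and ran from -0.48 to 0.094 with a library left out, turning positive at 0.094 without untreated replicate 3. miR-142-5p was not called in any of 16 alternatives and turned negative with DESeq2, at -0.13, and without untreated replicate 3, at -0.24. With a library left out it ran from -0.24 to 0.93. The cause of these turns was not tested. miR-451-5p and miR-142-5p did not pass filterByExpr, nor miR-142-5p a minimum mean of 5, so these settings gave no value. The share difference of miR-142-5p ran from -0.0545 to 0.0354 percentage points with a library left out, positive without untreated replicate 1. That of miR-223-3p ran from -0.00631 to 0.0162 and turned to -0.00605 without nicorandil replicate 2 and to -0.00631 without untreated replicate 2 or 3. miR-451-5p minus miR-142-5p ran from -1.41 to 0.33 with a library left out, positive without untreated replicate 3.

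Against 26 miRNAs called (17 higher and 9 lower), library totals gave 16 (5 and 11), median-of-ratios scaling 15 (6 and 9) and DESeq2 14 (5 and 9, with 9 adjusted p-values not given). Without a library the count ran from 11, without nicorandil replicate 2, to 21. Without miR-486 the red-cell part of the member reads was 63.0% in nicorandil and 68.2% in untreated exosomes. The replicate block gave 26 calls and a log2 fold change of -1.20 for miR-486 (limma adjusted p = 0.0176). Same-numbered libraries had correlations of 0.00883, 0.0437 and -0.030 in their deviations. The untreated libraries differed little beyond sampling noise, so this check could not decide whether same-numbered libraries were paired. Depth limits every member with few untreated reads: the 3 white-cell members had 7 together and miR-144-3p had 0.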

Other observations

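The authors' deposited table gives large fold changes for members with hardly a read. miR-142-3p has a log2 fold change of -3.03 (unadjusted p = 0.545) in the authors' deposited table, on 0 nicorandil reads and 1 untreated read. miR-223-5p has 2.53 (unadjusted p = 1) in the authors' deposited table, on 3 nicorandil reads and 0 untreated reads, and miR-144-3p has 1.38 (unadjusted p = 1), on 1 nicorandil read. For miR-486 the authors' deposited table has -1.26 (unadjusted p = 0.00301). These p-values are from the authors' comparison of the groups, each for a single miRNA and not adjusted. The exact test of edgeR on the recovered reads, among the alternatives above, gave the same log2 fold change for miR-486, -1.26. That alternative therefore repeats the authors' comparison.

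miR-223-3p and miR-142-3p have the same values in all 3 untreated libraries, 1.64, 0.109 and 0.105 normalized reads, because each has 1 read in untreated replicate 1. What a read is worth differs by library and miRNA: a single read of miR-223-3p stands at 0.0434 in nicorandil replicate 1 and at 0.716 in nicorandil replicate 3.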
